A study of Mus musculus with 33 samples.

Results

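The GFP-medium population of the Tdgf1 reporter line was compared with the unsorted population of the same line. The members are 6 gRNA libraries of the 33 samples in the series, 3 from GFP-medium cells and 3 from bulk cells, chosen by their labels. Each library counts 3918 gRNAs, of which 3908 lie on mouse chromosome 9 around Tdgf1 and 10 are directed at GFP. The 3 GFP-negative libraries of the line are given beside them where they show in which respect GFP-medium cells stood apart. The study used mouse embryonic stem cells that carried a GFP replacement at the Tdgf1 start site as the reporter and, at the ROSA26 locus, a dummy guide RNA. Bulk, GFP-medium and GFP-negative cells all carried both modifications and all received the gRNAs by electroporation. All were grown with LIF in 15% serum, with UO126, an inhibitor of the kinase MEK, at 500 nM and a GSK-3 inhibitor (XV) at 5 nM. The sources used here do not say whether GFP sits on 1 or both Tdgf1 alleles, where the sorting gates were set or how many cells were sorted. The labels call the replicates replicates of the line and name no separate clones or cultures, so a p-value here sets differences against the spread of these samples alone, part of which can be technical. The material was genomic DNA, which holds no expression, so the labelled cell type could not be checked against marker genes.

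In a pooled mutation screen of this kind, each cell carries a guide RNA (gRNA) that directs the Cas9 nuclease to a genomic site next to an NGG motif, the PAM, where repair of the break leaves small mutations. Cells are then sorted by the fluorescence of the reporter, and a gRNA that is over-represented among cells with less fluorescence marks a site at which mutation is accompanied by loss of the reporter. Tdgf1 encodes Cripto, a cell-surface co-receptor for the growth factor Nodal, and is strongly expressed in mouse embryonic stem cells. The neighbouring gene, Lrrc2, encodes a leucine-rich repeat protein and is transcribed away from Tdgf1, so that the sequence between both genes lies upstream of each.

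The gRNAs covered chr9:110926152-110966229 of the mouse genome, build mm10, a stretch of 40.1 kb, with a median distance of 5 bp between neighbouring gRNAs. Tdgf1 lies on the minus strand at chr9:110939608-110946158, so its 5′ end is the higher coordinate. Lrrc2 lies on the plus strand from chr9:110951545 and its start is 5387 bp from that of Tdgf1. Positions below are distances of the middle of a gRNA interval from the annotated 5′ end of Tdgf1, either upstream of it, towards Lrrc2, or inside the gene. An interval includes the PAM. The annotation used here gives gene spans without exons, so sites inside Tdgf1 are not assigned to exons or introns.

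The reference held sequence for the last 250 bases before the annotated Tdgf1 start, chr9:110946159-110946408 (minus strand, GRCm38.p6, RefSeq), which is shown because gRNA counts in GFP-medium cells were concentrated there. Capitals mark 2 copies of the word GGGCGTGG.
Tdgf1 upstream sequence: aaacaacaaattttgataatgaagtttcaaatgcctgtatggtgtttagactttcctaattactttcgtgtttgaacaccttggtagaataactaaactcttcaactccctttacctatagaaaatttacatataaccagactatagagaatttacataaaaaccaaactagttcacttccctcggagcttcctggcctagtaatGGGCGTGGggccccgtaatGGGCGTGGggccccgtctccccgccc
Over the 300-base window that adds the first 50 transcribed bases, GGGCGTGG was found in those 2 places and nowhere on the opposite strand. Of 32851 RefSeq windows of the same length, 5.33% held it on either strand and 0.728% held it at least 2 times. TATAAA, the TATA-box word, occurred on neither strand (13.6% of windows held it). The word GGGCGG was also looked for and occurred 1 time, on the opposite strand (35.7% of windows held it). These words were looked for after the window had been read, and a match is a description of the letters.

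The 300-base window contained 35 gRNA intervals, and all 3 GFP-medium values lay above all 3 bulk values for 4 of them, against 29 of all 3918 gRNAs (0.74%). Their target sites are printed here with the PAM in capitals, from the strand that carries it, and the site 3 bp upstream has a PAM on both strands.
Site 29 bp inside the gene, chr9:110946118-110946140: acaccttaagtttcttttaaGGG
Site 3 bp upstream, chr9:110946150-110946172: CCCtcaggtgggcggggagaCGG
Site 54 bp upstream, chr9:110946201-110946223: gagcttcctggcctagtaatGGG
Site 125 bp upstream, chr9:110946272-110946294: gttatatgtaaattttctatAGG
Another 4 sites of the window had no count in any GFP-medium library, and they are printed because they lie among the sites with high counts.
Site 5 bp upstream, chr9:110946152-110946174: ctcaggtgggcggggagacgGGG
Site 60 bp upstream, chr9:110946207-110946229: actaggccaggaagctccgaGGG
Site 66 bp upstream, chr9:110946213-110946235: tcacttccctcggagcttccTGG
Site 76 bp upstream, chr9:110946223-110946245: CCGagggaagtgaactagttTGG
The site 5 bp upstream overlaps that 3 bp upstream in all but 2 bases at each end. Its gRNA had only 13, 0 and 17 counts in the bulk libraries. The 250 bases before and 50 after the Lrrc2 start held 41 gRNA intervals, and 0 of them had all GFP-medium values above all bulk values, near the 0.74% found over all gRNAs.

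Library totals were 119666, 123840 and 107960 counts in bulk replicates 1, 2 and 3 and 461825, 379072 and 449441 in the GFP-medium replicates, so the GFP-medium libraries were the deeper ones. They held far fewer kinds of gRNA all the same. Of the 3918 gRNAs, 3579, 3635 and 3455 had a count in the bulk replicates, and 827, 1198 and 533 in the GFP-medium replicates. The 10 most counted gRNAs made up 1.30% to 1.68% of a bulk library and 26.0%, 16.0% and 28.1% of the GFP-medium libraries. A GFP-medium library reached 50% of its counts with 41, 62 and 26 gRNAs, against 763 to 878 gRNAs in bulk. The dummy guide, which is no member of the gRNA set, took 3.53% to 11.3% of all counts in bulk and 0.0198% to 0.178% in GFP-medium libraries, and was left out of every total. The number of cells behind a gRNA and the number of copies read from each cell cannot be told apart in these counts, and the part of this narrowing in the results below was not tested.

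**Figure D1:**
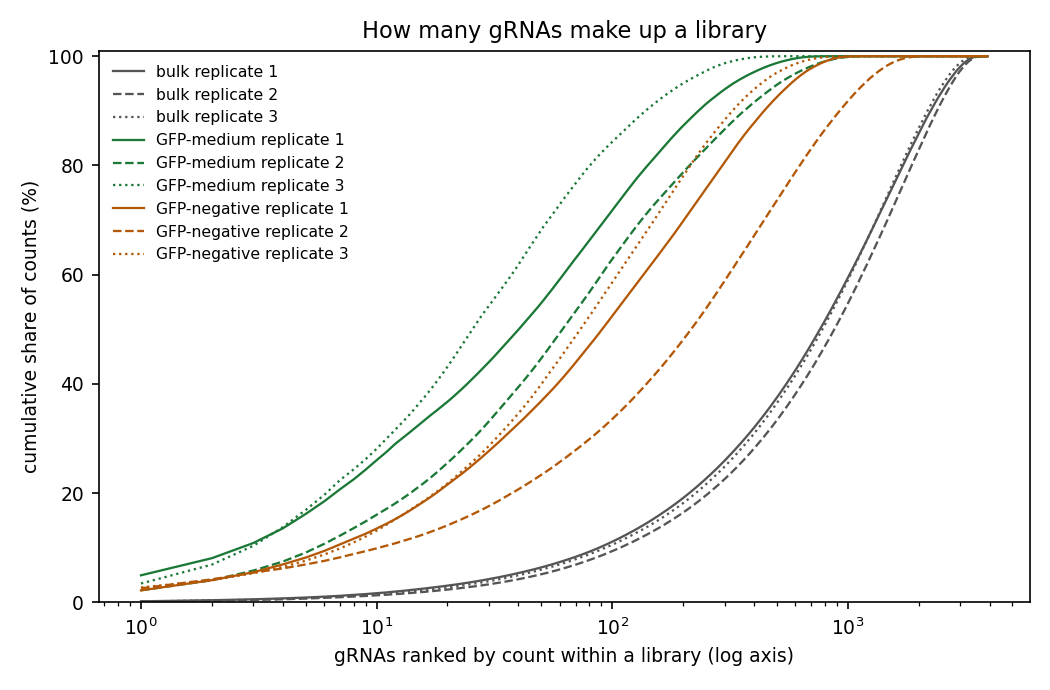
Cumulative share of counts (%) against gRNAs ranked by count within a library (log axis), 1 line per library of bulk, GFP-medium and GFP-negative cells. The 3 GFP-medium lines rise first, reaching 50% with 41, 62 and 26 gRNAs, and the bulk lines rise last.

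The GFP-medium replicates differed from each other in which gRNAs they held. Of all gRNAs, 2164 had no count in any GFP-medium library, 1103 had one in 1 library, 498 in 2 and 153 in all 3, whereas 3277 had a count in all 3 bulk libraries. Pearson correlations of log2(CPM + 1) between libraries (CPM, the count of a gRNA scaled to the same total in every library), across gRNAs, which are not independent replicates, were 0.213 to 0.294 between GFP-medium replicates and 0.646 to 0.704 between bulk replicates. Between the GFP-medium and GFP-negative library of the same replicate number they were 0.561 to 0.637, and between those of different number 0.205 to 0.310. Of the 153 gRNAs found in all 3 GFP-medium libraries, 87 lay within 2 kb of the Tdgf1 5′ end, 62 lay farther away and 4 were directed at GFP. The 100 most counted gRNAs of the replicates numbered 245 in all, 11 of them were among the 100 in every replicate, and all 11 lay within those 2 kb. In bulk, 12 gRNAs were among the 100 most counted of every replicate and 0 of these lay within 2 kb.

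The question put to the region as a whole was where the counts of GFP-medium cells gathered. In bulk, the 456 gRNAs within 2 kb of the 5′ end held 13.3%, 12.9% and 12.7% of the counts. In GFP-medium cells they held 52.5%, 63.5% and 66.5%, so that the groups did not overlap. The mean share was 13.0% ± 0.292 (SD, n = 3) in bulk and 60.8% ± 7.38 (SD, n = 3) in GFP-medium cells, and 35.9% ± 5.49 (SD, n = 3) in GFP-negative cells. Of these 456 gRNAs, 368 had a count in at least 1 GFP-medium library, compared with 1377 of the 3452 that lay farther away.

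The classes on both sides of the start had higher shares in GFP-medium cells. The 123 gRNAs within 500 bp of it made up 3.54%, 3.44% and 3.49% of bulk counts and 22.1%, 27.2% and 24.3% of GFP-medium counts, a log2 ratio of mean shares of 2.81. The 213 gRNAs 0.5 to 2 kb upstream made up 6.07%, 5.98% and 5.48% of bulk and 17.4%, 24.9% and 26.9% of GFP-medium counts, a log2 ratio of 1.98. The 120 gRNAs 0.5 to 2 kb inside the gene made up 3.67%, 3.50% and 3.73% of bulk and 13.0%, 11.4% and 15.2% of GFP-medium counts, a log2 ratio of 1.86. In each of these 3 classes every GFP-medium library lay above every bulk library. Under the exact 2-sided permutation test of 3 against 3 libraries, which ignores the pairing, each gave p = 0.1, the smallest this test allows. After Benjamini-Hochberg adjustment over 9 classes it was 0.129. An exact permutation test of 3 pairs could not give less than p = 0.25.

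A part of each class carried these shares. The median over gRNAs of the mean CPM was 251 in bulk and 489 in GFP-medium within 500 bp of the start, but 237 in bulk and 194 in GFP-medium for the class 0.5 to 2 kb upstream, and 300.2 and 221 for the class 0.5 to 2 kb inside the gene. The middle gRNA of the last 2 classes was therefore lower in GFP-medium cells although the sum over the class was higher. Counts in all 3 GFP-medium libraries were found for 35 of 123, 43 of 213 and 9 of 120 gRNAs in the 3 classes.

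Away from the start, shares were lower in GFP-medium cells. The 477 gRNAs in the rest of Tdgf1 went from 12.3%, 11.9% and 12.1% in bulk to 10.8%, 7.77% and 8.64%, a log2 ratio of -0.42. The 1276 gRNAs beyond the 3′ end went from 28.1%, 28.9% and 28.8% to 10.8%, 6.51% and 5.82%, a log2 ratio of -1.89. The 1242 gRNAs in Lrrc2 more than 1 kb from its start went from 33.5%, 33.7% and 33.7% to 17.1%, 8.65% and 10.4%, a log2 ratio of -1.48. In these 3 classes, and in the 204 gRNAs within 1 kb of the Lrrc2 start (mean share 5.69% in bulk and 4.05% in GFP-medium), all GFP-medium libraries lay below all bulk libraries, with the same exact permutation p of 0.1. The 253 gRNAs between 2 kb upstream of Tdgf1 and the 1 kb before Lrrc2 held 6.85%, 6.64% and 6.87% of bulk and 4.36%, 9.60% and 4.39% of GFP-medium counts. There replicate 2 was above and replicates 1 and 3 below bulk (exact permutation p = 1).

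Summed over 1-kb tiles, 5 of 42 features (41 tiles and the sum of the GFP-targeting gRNAs) were higher in GFP-medium than in bulk by edgeR's quasi-likelihood test at a Benjamini-Hochberg adjusted p under 0.05, which is 11.9% of the features tested, and 19 were lower (45.2%). The 5 higher tiles were consecutive, from chr9:110944000 to chr9:110948999, and so reached from inside Tdgf1 into the sequence upstream of it. Together their 574 gRNAs held a mean of 15.8% of bulk and 63.0% of GFP-medium counts.

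The tile that holds the start, chr9:110946000-110946999, had 4.15%, 4.03% and 4.05% of the counts in bulk and 24.6%, 25.7% and 21.8% in GFP-medium libraries, the largest share of any tile in the GFP-medium mean. Its log2 difference was 2.56 (SE 0.081, adjusted p = 8.35e-11, edgeR). The next tile into the gene, chr9:110945000-110945999, had 2.13%, 2.21% and 2.16% in bulk and 11.7%, 11.8% and 13.3% in GFP-medium libraries, a log2 difference of 2.50 (SE 0.096, adjusted p = 3.63e-10, edgeR). In both tiles the 3 GFP-medium libraries lay close together and far above bulk.

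The first tile that lies wholly upstream, chr9:110947000-110947999, had 3.88%, 3.73% and 3.38% in bulk and 8.79%, 19.8% and 22.3% in GFP-medium libraries, a log2 difference of 2.21 (SE 0.42, adjusted p = 0.00555, edgeR). Replicate 1 was the low one here but still above all bulk libraries. The outer tiles of the 5 moved less. The tile chr9:110944000-110944999, inside Tdgf1, had 3.24%, 3.14% and 3.13% in bulk and 4.76%, 6.07% and 6.94% in GFP-medium libraries, with a log2 difference of 0.90 (SE 0.14, adjusted p = 5.87e-04, edgeR). The tile chr9:110948000-110948999, at the upstream edge, had 2.63%, 2.76% and 2.67% in bulk and 4.19%, 3.20% and 4.10% in GFP-medium libraries, with a log2 difference of 0.51 (SE 0.17, adjusted p = 0.0297, edgeR). Its call was lost in the fit of the 6 bulk and GFP-medium libraries (adjusted p = 0.106, edgeR), without its most counted gRNA (log2 difference 0.30, adjusted p = 0.199, edgeR), without GFP-negative replicate 3 and without each bulk replicate.

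**Figure D2:**
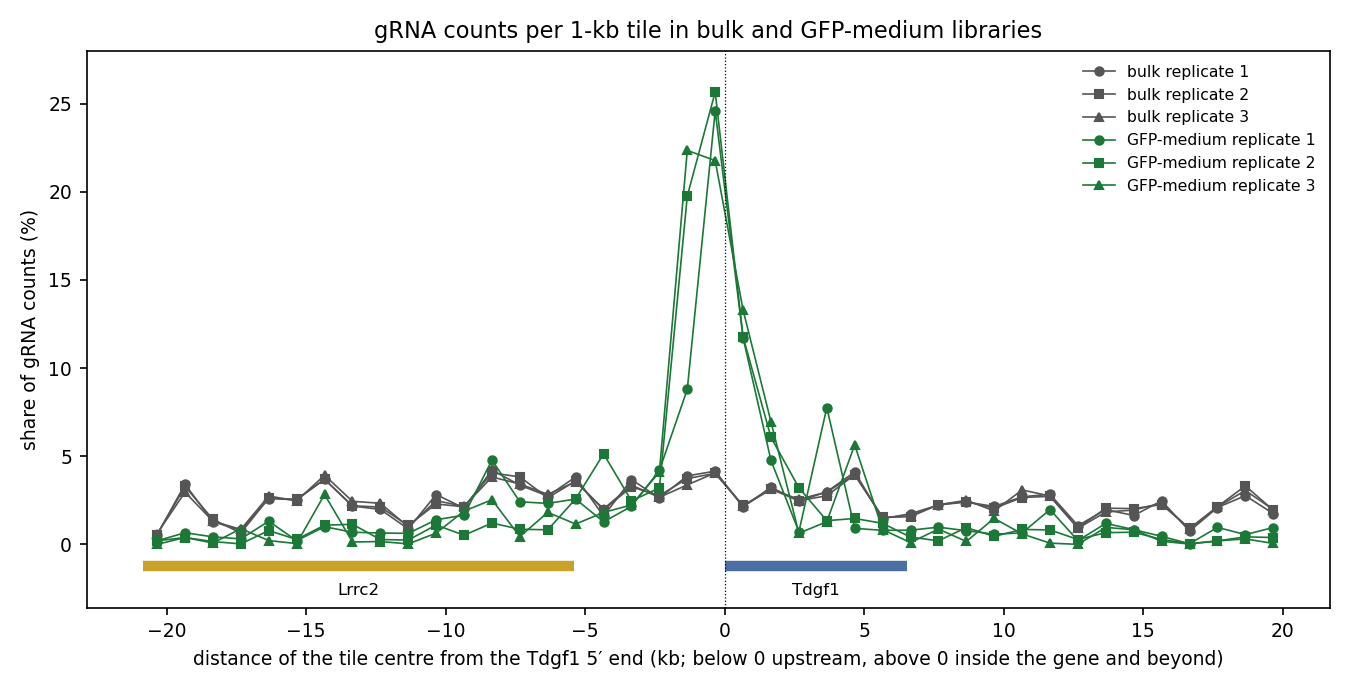
Share of gRNA counts (%) per 1-kb tile against the distance of the tile centre from the Tdgf1 5′ end (kb; below 0 upstream), 1 line per bulk and GFP-medium library, with gene spans as bars and Lrrc2 drawn only to the edge of the gRNA set. GFP-medium libraries have 21.8% to 25.7% in the tile of the start, where bulk has 4.03% to 4.15%. Replicates 1 and 2 peak there, and replicate 3 peaks in the next tile upstream, at 22.3%.

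The 19 lower tiles had log2 differences from -0.58 to -4.69. Of the 13 tiles beyond the 3′ end of Tdgf1 9 were lower, as were 8 of the 16 tiles at or past the Lrrc2 start. Of the lower tiles, those with the largest bulk shares were chr9:110953000-110953999 (mean 3.54% in bulk, 1.24% in GFP-medium), chr9:110949000-110949999 (3.43% and 2.29%) and chr9:110965000-110965999 (3.22% and 0.480%). The largest fall among them was that of the last, by 2.75 on the log2 scale (SE 0.42, adjusted p = 5.61e-04, edgeR). The tile chr9:110949000-110949999 adjoins the 5 higher tiles and its log2 difference was -0.58 (SE 0.20, adjusted p = 0.0318, edgeR). That difference rested on the scaling: it was 0.76 with TMM over tiles, and its call was lost in the fit of 6 libraries (adjusted p = 0.106, edgeR) and without each bulk replicate or GFP-negative replicate 2 or 3.

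Because shares sum to 100% in every library, a higher share near the start goes with lower shares elsewhere. With shares as the scale, the median log2 difference over the 42 features was -1.28, and with TMM scaling over tiles, which places the middle of the tiles near no change, it was 0.03. Under TMM the 5 tiles stayed higher together with a sixth, chr9:110950000-110950999, and 5 tiles were lower in place of 19. The higher calls did not depend on which of these scalings was used, but most of the lower calls did. The count of lower tiles was also 9, 8 and 8 without bulk replicates 1, 2 and 3.

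At 250-bp resolution the gain upstream was not even. From 1250 to 1500 bp upstream, 51 gRNAs held 1.19%, 1.11% and 1.18% of bulk counts and 4.19%, 10.9% and 11.7% of GFP-medium counts. From 1500 to 1750 bp upstream, 30 gRNAs held 1.20%, 1.13% and 0.878% of bulk and 2.91%, 5.52% and 6.61% of GFP-medium counts. Between this stretch and the start, from 750 to 1250 bp upstream, 62 gRNAs held 1.52%, 1.60% and 1.36% of bulk and only 1.73%, 4.38% and 3.82% of GFP-medium counts. The ratio of mean shares there was 1.15 on the log2 scale, against 2.65 for the 81 gRNAs from 1250 to 1750 bp upstream. Shares then rose again towards the start, to 8.45%, 5.26% and 8.24% in the last 250 bp before it (0.651%, 0.891% and 0.837% in bulk) and 6.99%, 12.2% and 7.39% in the first 250 bp of the gene (1.18%, 0.926% and 0.904% in bulk).

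Inside the gene the gain ended sooner. The first 1 kb held 3.10%, 3.00% and 2.90% of bulk and 18.5%, 23.1% and 19.1% of GFP-medium counts from 95 gRNAs. The next 1 kb held 2.36%, 2.23% and 2.43% of bulk and 4.31%, 5.66% and 6.71% of GFP-medium counts from 78 gRNAs. In the 250 bp that followed, 2000 to 2250 bp inside, GFP-medium libraries at 0.491%, 0.442% and 0.274% lay below bulk at 1.07%, 1.07% and 0.870%. These bins hold 7 to 51 gRNAs each, share counts with the tiles above and were not tested separately.

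**Figure D3:**
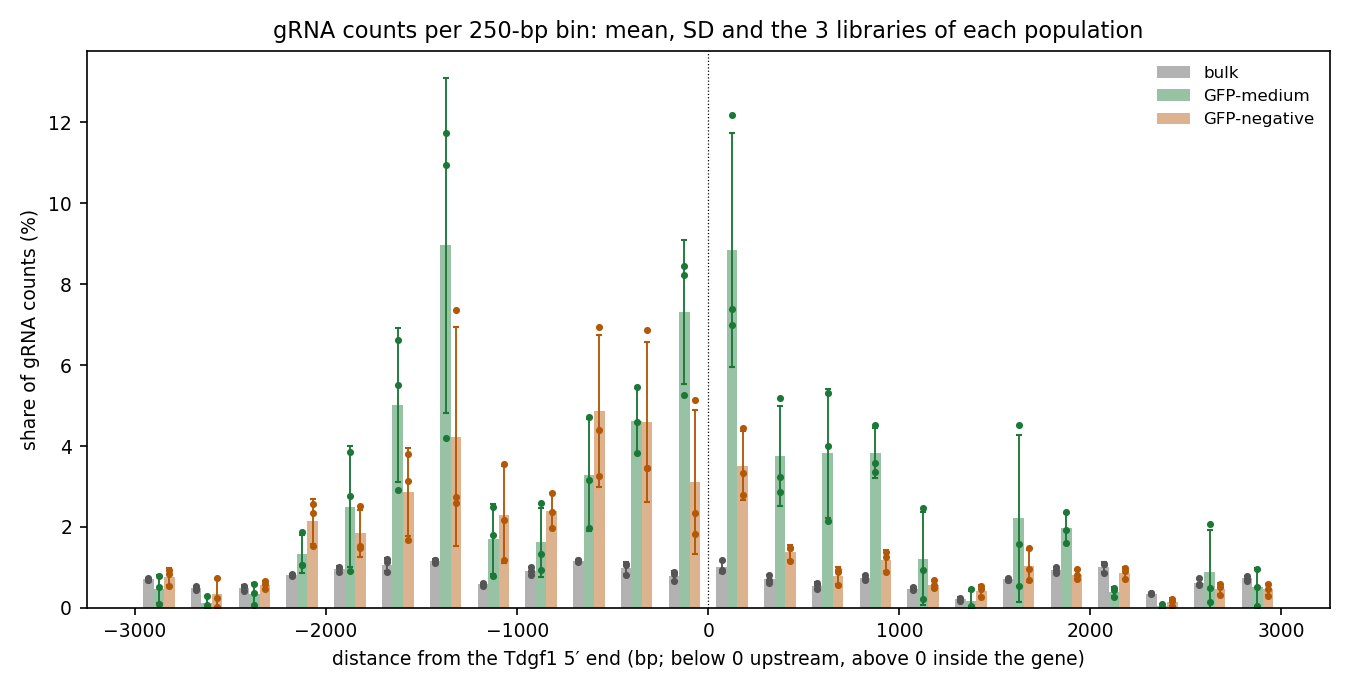
Share of gRNA counts (%) per 250-bp bin against distance from the Tdgf1 5′ end (bp; below 0 upstream): bars give the mean, error bars the SD and points the 3 libraries of bulk, GFP-medium and GFP-negative cells. GFP-medium means are highest at 1250 to 1500 bp upstream (8.96%) and in the first 250 bp of the gene (8.85%), with lower bins between 750 and 1250 bp upstream.

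Single gRNAs were then ranked. No gRNA passed as higher in GFP-medium cells by edgeR's quasi-likelihood test (0 of 3172 tested, 0%, at an adjusted p under 0.05), and 7 were higher at an unadjusted p under 0.05. DESeq2 called 18 higher on the same counts, all 18 within 2 kb of the start, and limma-voom called 0, adjusted or not. Irrespective of these tests, 29 of the 3918 gRNAs (0.74%) had all 3 GFP-medium values above all 3 bulk values. Of the 29, 9 lay within 500 bp of the start, 17 lay 0.5 to 2 kb upstream and 3 lay farther upstream, up to 3199 bp. None lay deeper in the gene than 483 bp. Their mean CPM was 2.11 to 36.9 times that of bulk, with a median of 12.1 times, and together they made up 12.5% to 26.6% of a GFP-medium library and 1.29% to 1.53% of a bulk library. The 29 were picked by these same values, so their ratios and shares are high by choice. Of the 29, 14 were among the 18 that DESeq2 called.

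Of those 29, the 12 with the highest mean GFP-medium CPM lay in 3 places: around the start, at 1290 to 1376 bp upstream, and at 1610 and 1886 bp upstream. The highest mean belonged to the gRNA 110 bp inside the gene, chr9:110946037-110946059. It had 577, 565 and 750 CPM in bulk, 4816, 18440 and 34203 CPM in GFP-medium and a mean of 2051 CPM ± 1855 (SD, n = 3) in GFP-negative libraries. Every GFP-medium value lay above every bulk value, by which the gRNA was picked, but the GFP-medium values themselves differed severalfold. The edgeR log2 difference was 4.82 with an adjusted p of 0.0628, and the DESeq2 adjusted p was 0.0017.

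The gRNA 29 bp inside, whose site is printed above, had 1120, 614 and 408 CPM in bulk and 22026, 5793 and 13399 CPM in GFP-medium libraries. Its edgeR log2 difference of 4.45 had an adjusted p of 0.0624, the lowest among these 12. The gRNA 3 bp upstream had 376, 355 and 722 CPM in bulk and 10136, 1243 and 6938 CPM in GFP-medium libraries. The gRNA at 5 bp upstream, which overlaps it almost fully, had 109, 0 and 157 CPM in bulk, from 13, 0 and 17 counts. It had 0 counts in all 3 GFP-medium libraries, but the bulk counts are too few for a comparison. The gRNA between them, 4 bp upstream, had 418, 686 and 102 CPM in bulk and 3815, 11802.5 and 0 CPM in GFP-medium libraries. At 0 counts a GFP-medium library allows up to 6.50 to 7.91 CPM, the value of 3 counts.

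Further into the gene, 3 of the 12 followed each other within 200 bp. The gRNA 307 bp inside, chr9:110945840-110945862, was the most even of all 12 in GFP-medium cells, at 7029, 4780 and 7371 CPM against 134, 388 and 222 in bulk. The gRNA 357 bp inside, chr9:110945790-110945812, had 15001, 7109 and 743 CPM in GFP-medium and 510, 404 and 315 in bulk libraries. The gRNA 483 bp inside, chr9:110945664-110945686, had 3083, 3485 and 18327 CPM in GFP-medium and 777, 549 and 630 in bulk libraries. Replicate 3 was the low library for the second and the high one for the third, so the gRNAs of this stretch did not vary together.

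Upstream, the gRNA with the largest ratio of all 29 lay 1375 bp from the start, chr9:110947522-110947544. It had 460, 250.3 and 306 CPM in bulk and 1347, 4867 and 31212 CPM in GFP-medium libraries, a mean 36.9 times higher that rested largely on replicate 3. The gRNA 1 bp farther, chr9:110947523-110947545, was more even, with 435, 638 and 629.9 CPM in bulk and 4294, 7592 and 7084 CPM in GFP-medium libraries. DESeq2 called both higher (adjusted p = 0.00177 and 0.0266), and edgeR called neither (adjusted p = 0.0657 and 0.133). These gRNAs share most of their target sequence.

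Of the remaining upstream gRNAs of the 12, DESeq2 called those at 1290 and 1298 bp but not those at 1610 and 1886 bp (adjusted p = 0.101 and 0.127), and edgeR called none. At 1610 bp, chr9:110947758-110947779, the values were 861, 945 and 352 CPM in bulk and 6507, 5382 and 18496 CPM in GFP-medium libraries. At 1886 bp, chr9:110948034-110948055, bulk was 384, 363 and 398 CPM and GFP-medium 1332, 443 and 16852 CPM, so that replicate 2 was just above bulk and replicate 3 decided the mean. At 1290 bp, chr9:110947437-110947459, bulk was 393, 266 and 602 CPM and GFP-medium 4545, 4382 and 19613 CPM.

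One of the sites that the study chose for deep sequencing lay in this stretch, at 1298 bp upstream, chr9:110947445-110947467. Its gRNA had 267, 452 and 676 CPM in bulk, 4562, 6846 and 14044 CPM in GFP-medium and 2945, 1192 and 11012 CPM in GFP-negative libraries. The mean in GFP-medium was 18.2 times that in bulk, with adjusted p = 0.0947 by edgeR and 0.00731 by DESeq2. Of the 15 gRNAs centred within 20 bp of this site, itself included, 5 had all GFP-medium values above all bulk values. Over all 3918 gRNAs this share was 0.74%. The gRNA of the site is among the 5, so the stretch was centred on a high gRNA. Others of the 15 had no GFP-medium count, such as that 1280 bp upstream, which had 175, 32.3 and 250 CPM in bulk. The neighbours of the deep-sequenced gRNA at a distance of 1 bp were scarcer in bulk. The gRNA 1297 bp upstream, chr9:110947444-110947466, had 125, 113 and 18.5 CPM in bulk and 13.0, 0 and 0 CPM in GFP-medium libraries. From few counts, all its GFP-medium values thus lay below all bulk values. The gRNA 1299 bp upstream, chr9:110947446-110947468, had 16.7, 0 and 27.8 CPM in bulk and 0, 18.5 and 0 CPM in GFP-medium libraries, too few counts for a comparison. Another deep-sequenced site, 1309 bp upstream at chr9:110947457-110947478, had 226, 0 and 18.5 CPM in bulk and 84.4, 0 and 0 CPM in GFP-medium libraries, likewise too few counts.

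The other deep-sequenced sites of the region lay beyond the 3′ end of Tdgf1, in the tile chr9:110934000-110934999. The gRNA at chr9:110934270-110934292, 11877 bp from the 5′ end, had 192, 64.6 and 315 CPM in bulk and 0, 448 and 0 CPM in GFP-medium libraries, so the groups overlapped. The gRNA at chr9:110934426-110934448, 11721 bp from the 5′ end, had 376, 404 and 519 CPM in bulk and no count in any GFP-medium library, at least 61.6-fold lower when 3 counts per library stand in for 0. Their tile had 2.84%, 2.72% and 2.74% of bulk and 1.97%, 0.819% and 0.0701% of GFP-medium counts. The log2 difference of the tile was -1.54 (SE 0.83, adjusted p = 0.133, edgeR) and passed the threshold with the replicate number as a block (adjusted p = 0.0342, edgeR).

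Beyond 2 kb, 3 gRNAs had all GFP-medium values above all bulk values, all on the Lrrc2 side. The gRNA 3199 bp upstream, chr9:110949346-110949368, had 643, 493 and 482 CPM in bulk and 1427, 1678 and 3106 CPM in GFP-medium libraries. A pair of gRNAs lay 3 bp apart at 2040 and 2043 bp upstream. The nearer, chr9:110948187-110948209, had 142, 250.3 and 611 CPM in bulk and 868, 1105 and 774 CPM in GFP-medium libraries. The farther, chr9:110948190-110948212, had 986, 557 and 880.0 CPM in bulk and 3304, 2182 and 1544 CPM in GFP-medium libraries. Ratios of means were 3.84, 2.74 and 2.90, below the median of the 29, and none of the 3 was called by edgeR (adjusted p = 0.463, 0.609 and 0.506) or DESeq2.

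Some gRNAs were abundant in 1 GFP-medium library and had no count in the others. The 5 with the highest single value were at 8099 bp upstream (31334 CPM in replicate 1), 4186 bp upstream (22175 CPM in replicate 2), 9618 bp upstream (15208 CPM in replicate 3), 874 bp inside the gene (11959 CPM in replicate 3) and 5 bp inside (10130 CPM in replicate 2). Of these 5, 2 lay within 2 kb of the start and 3 did not. Their bulk values lay between 8.36 and 702 CPM. The lowest was that of the gRNA 4186 bp upstream, which had only 1, 14 and 22 counts in bulk replicates 1, 2 and 3. The gRNA at 4186 bp upstream lies in the tile chr9:110950000-110950999, which had 1.27%, 5.13% and 1.81% of GFP-medium counts.

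**Figure D4:**
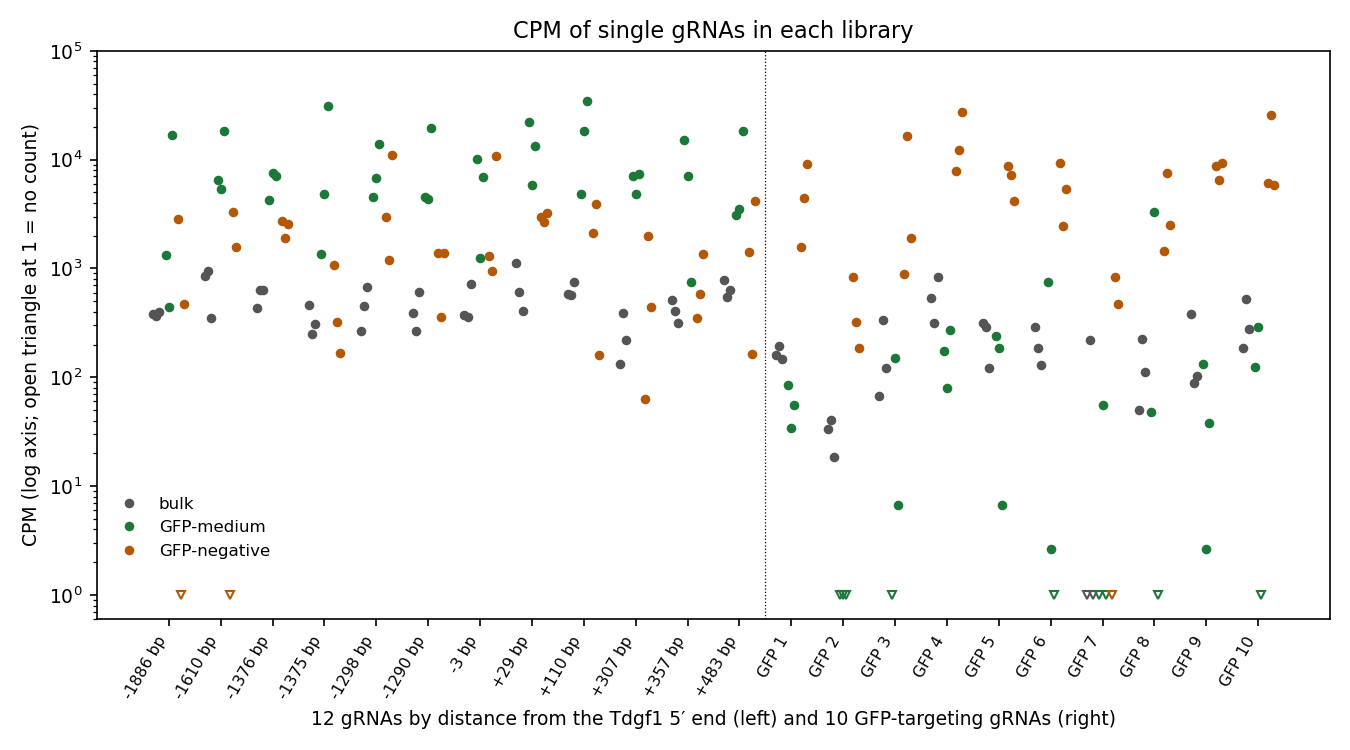
CPM (log axis) of 12 gRNAs near the Tdgf1 start, labelled by distance in bp (below 0 upstream), and of the 10 GFP-targeting gRNAs, 1 point per library of bulk, GFP-medium and GFP-negative cells; open triangles mark libraries without a count. The 12 gRNAs were picked because all their GFP-medium values lie above all bulk values. For the GFP-targeting gRNAs, which were not picked by value, the GFP-negative points lie mostly above bulk while GFP-medium points mostly do not.

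The 10 gRNAs directed at GFP itself, the positive controls of the design, were not more abundant in GFP-medium cells. Their summed share was 0.202%, 0.242% and 0.186% in bulk, 0.155%, 0.408% and 0.0378% in GFP-medium and 4.53%, 8.41% and 6.62% in GFP-negative libraries. The log2 difference between GFP-medium and bulk was -0.07 (SE 0.68, adjusted p = 0.919, edgeR), and its sign depended on the scaling, at 1.34 with TMM over tiles. Between GFP-medium and GFP-negative it was -5.03 (SE 0.81, adjusted p = 7.87e-04, edgeR).

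Numbered in the order of the table, GFP-targeting gRNAs 1 and 2 had GFP-medium values that all lay below all bulk values, as did gRNA 4. These are 3 of 10, where 2284 of all 3918 gRNAs (58.3%) were below in this way. gRNA 1 had 159, 194 and 148 CPM in bulk and 84.4, 34.3 and 55.6 CPM in GFP-medium libraries. gRNA 2 was scarce in bulk, at 33.4, 40.4 and 18.5 CPM, and absent from the GFP-medium counts. gRNA 4 had 535, 315 and 834 CPM in bulk, 175, 79.1 and 271 CPM in GFP-medium and a mean of 15867 CPM ± 10238 (SD, n = 3) in GFP-negative libraries. The other 7 overlapped between bulk and GFP-medium. For gRNAs 3, 5, 7, 9 and 10 the GFP-medium mean was 0.254 to 0.592 times the bulk mean. gRNA 6 had 747, 2.64 and 0 CPM and gRNA 8 had 47.6, 3279 and 0 CPM in GFP-medium libraries, so 1 library decided each mean. The 80.4% of all GFP-targeting counts in GFP-medium replicate 2 that gRNA 8 held show how much a single gRNA weighed in these sums.

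Lower gRNAs were far more numerous. By edgeR 1278 of 3172 gRNAs were lower in GFP-medium cells (40.3%), and for 2284 of all 3918 (58.3%) all 3 GFP-medium values lay below all 3 bulk values. Of the 1278, 1222 had no count in any GFP-medium library. These 1222 passed the filter through bulk or GFP-negative counts alone. The 40.3% is therefore a share of a set chosen in part by abundance in the other populations. By class, the calls were 17 of 119 tested within 500 bp (14.3%), 14 of 186 at 0.5 to 2 kb upstream (7.53%) and 18 of 115 at 0.5 to 2 kb inside the gene (15.7%). They were 58 of 214 between both genes (27.1%), 48 of 179 within 1 kb of the Lrrc2 start (26.8%) and 156 of 390 in the rest of Tdgf1 (40%). Farthest out they were 487 of 941 beyond the 3′ end (51.8%) and 480 of 1018 in the rest of Lrrc2 (47.2%). These lower calls depended on the libraries in the fit. Leaving out any 1 GFP-medium replicate left 0 (with 1572 to 1935 at an unadjusted p under 0.05), limma-voom called 0 (920 unadjusted), and 681, 804 and 733 were called without bulk replicates 1, 2 and 3. More were called without GFP-negative libraries: 1734, 1761 and 1753 without replicates 1, 2 and 3, and 1404 with none of them in the fit.

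Of those called, the 5 most abundant in bulk had no count in any GFP-medium library. The gRNA at chr9:110936815-110936837, beyond the 3′ end, had 1663, 1558 and 1250.5 CPM in bulk and no count in any GFP-medium or GFP-negative library, at least 212-fold lower in GFP-medium. The gRNA at chr9:110944137-110944159, 2010 bp inside Tdgf1, had 1120, 985 and 1223 CPM in bulk and no GFP-medium count, at least 158-fold lower. The other 3, at chr9:110941581-110941602 and chr9:110940082-110940104 in Tdgf1 and chr9:110937037-110937059 beyond it, were at least 153-fold, 151-fold and 144-fold lower. Each bound takes 3 counts per GFP-medium library as the floor and covers counting error only. With no GFP-medium count, its size follows from the bulk mean alone, by which these gRNAs were picked.

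GFP-medium and GFP-negative cells differed in where near the start their counts lay. The tile sums of the 2 populations were compared in the same edgeR fit, and 3 of 42 features were higher in GFP-medium (7.14%) and 9 were lower (21.4%). The 3 higher tiles were consecutive and began inside the gene. The tile chr9:110945000-110945999, just inside the gene, had 11.7%, 11.8% and 13.3% of GFP-medium and 3.38%, 4.15% and 3.62% of GFP-negative counts, a log2 difference of 1.72 (SE 0.093, adjusted p = 3.37e-08, edgeR). The tile chr9:110944000-110944999 differed by 0.76 on the log2 scale (SE 0.14, adjusted p = 0.00258, edgeR). The tile of the start, chr9:110946000-110946999, had 16.4%, 15.2% and 18.2% of GFP-negative counts, below the GFP-medium values, with a log2 difference of 0.53 (SE 0.076, adjusted p = 4.42e-04, edgeR).

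That tile lies mostly upstream of the start. Between that tile and Lrrc2 no tile was called higher, and chr9:110949000-110949999 was called lower (log2 difference -0.84, SE 0.20, adjusted p = 0.00803, edgeR), a call lost in the fit of 6 libraries, with TMM over tiles and without GFP-negative replicate 3. The tile chr9:110947000-110947999 had 7.37%, 10.4% and 16.3% of GFP-negative and 8.79%, 19.8% and 22.3% of GFP-medium counts (log2 difference 0.58, SE 0.41, adjusted p = 0.367, edgeR). Without GFP-medium replicate 1 it was called higher (log2 difference 0.89, adjusted p = 0.0155, edgeR), so that library decides this call. By class, the 120 gRNAs 0.5 to 2 kb inside the gene held 13.2% ± 1.93 (SD, n = 3) of GFP-medium and 4.83% ± 0.370 (SD, n = 3) of GFP-negative counts, whereas the 213 gRNAs 0.5 to 2 kb upstream held 23.1% ± 5.03 and 18.5% ± 1.98 (SD, n = 3 each). The 39 gRNAs 500 to 750 bp upstream held 4.72%, 3.16% and 1.97% of GFP-medium and 6.94%, 4.40% and 3.27% of GFP-negative counts, so the ranges overlapped, with GFP-medium the lower within each replicate number. This difference was not tested.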

How the data were processed

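The authors deposited a table of counts per gRNA for the Tdgf1 line, with a column per library. The values are whole numbers whose totals differ between libraries, so they were treated as raw, unnormalized counts. Libraries were made by PCR from genomic DNA, per the labels' protocols, and no molecular identifiers are mentioned, so floors cover counting error only. Per the submitters' processing notes the build was mm10. The labels name no program that made the counts. Deposited starts and ends were read as counting from 0: with that reading all 76 gRNAs inside the RefSeq start windows of Tdgf1 and Lrrc2 (GRCm38.p6) abut an NGG (100%), against 61.8% and 28.9% under other readings. All positions are given counting from 1. The list of deep-sequenced sites, as deposited, gave positions only.

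Groups came from the sample titles. The dummy guide was left out. CPM and shares use the total of each library. Single gRNAs were tested with edgeR 4.0.16 in R 4.3.3 (quasi-likelihood F test, TMM, filterByExpr with a minimum count of 10) on the 9 libraries of the line. Sums over 1-kb tiles were tested likewise, scaled by library totals. Both fits had the population as the only factor and did not use the pairing. Fits with the replicate number as a block were run as an alternative. Against GFP-negative that alternative gave 3 higher and 9 lower features of 42. Class shares had an exact 2-sided permutation test that did not use the pairing. DESeq2 1.42.0, limma-voom (limma 3.58.1), other scalings, filters, tile widths and left-out libraries were tried. The fits were also run on simulated counts with a fixed spread and no loss of gRNAs. The GFP-medium libraries are unlike these, so that run does not show how the fits perform on them. A call means a Benjamini-Hochberg adjusted p under 0.05. The quasi-likelihood test gives no SE, so each SE printed with it is the absolute log2 difference divided by the square root of its F statistic.

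The labels say that a number marks a shared replicate of the line, so the numbers pair the libraries. Deviations from the group means correlated at 0.125, 0.0765 and 0.0907 between bulk and GFP-medium libraries of the same number, and at -0.079 to -0.018 between those of different number. Between GFP-medium and GFP-negative they were 0.401 to 0.484 and -0.275 to -0.161. Deviations from a group mean cancel out within each gRNA, so negative values between different numbers follow from positive ones between the same number.

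The gRNAs named were the 10 directed at GFP, the 12 with the highest mean GFP-medium CPM among those with all GFP-medium above all bulk values, all such gRNAs beyond 2 kb, the 5 most abundant in bulk among those called lower, those at deep-sequenced sites, and the 5 highest with a count in 1 GFP-medium library only. Gene spans were taken from RefSeq. The gRNAs of the 15-member stretch and of the sequence windows were named after their values were seen. Members, classes and lists were chosen with earlier results of these data known.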

Additional observations from a re-analysis of the deposited data

Results flagged for a closer look

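In 12 features the GFP-medium libraries differed from the GFP-negative libraries of the same line in edgeR's test of tile sums, that is, the difference from bulk was not the same in both populations. Higher in GFP-medium were the tiles chr9:110944000-110944999 (0.76 on the log2 scale), chr9:110945000-110945999 (1.72) and chr9:110946000-110946999 (0.53), which are consecutive. The last of them holds the Tdgf1 start and lies mostly upstream of it, and the other two lie inside the gene.

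Lower in GFP-medium were 8 tiles. Beyond the 3′ end of Tdgf1 these were chr9:110927000-110927999 (-2.06), chr9:110929000-110929999 (-4.76), chr9:110930000-110930999 (-1.73) and chr9:110935000-110935999 (-1.39). On the Lrrc2 side they were chr9:110949000-110949999 (-0.84), chr9:110958000-110958999 (-2.68), chr9:110961000-110961999 (-2.56) and chr9:110965000-110965999 (-1.66). In chr9:110929000-110929999, which holds 34 gRNAs, shares were 0.0364%, 0.0433% and 0.0178% in GFP-medium and 1.49%, 0.779% and 0.366% in GFP-negative libraries. The sum of the 10 GFP-targeting gRNAs was lower by -5.03 on the same scale.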

How the results depend on the processing

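The direction of the 5 higher tiles held under every alternative tried that kept these tile edges, and the tile chr9:110948000-110948999 lost its call in the fit of 6 libraries, without the top gRNA of each tile, without GFP-negative replicate 3 and without each bulk replicate. The number of higher tiles was 2 with 2-kb tiles, 8 with 500-bp tiles and 6 with TMM, which added chr9:110950000-110950999 (log2 difference 2.01). Lower tiles numbered 10 with 6 libraries and 5 with TMM, and 8 to 24 when single libraries were left out. Against GFP-negative, lower features numbered 4 with 500-bp tiles and 5 with 6 libraries, and higher features 3 to 5 with single libraries left out. With the replicate number as a block (paired fit), 5 tiles were higher and 21 lower, 0 gRNAs were higher and 1254 lower, and apart from the tile chr9:110934000-110934999 no other call on a named tile changed.

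Higher gRNAs numbered 9 with 6 libraries, 18 with DESeq2 and 2 with TMMwsp scaling, and 0 to 6 with single libraries left out. Lower gRNAs numbered 0 with limma-voom and 0 to 1761 with single libraries left out. Log2 differences that changed sign were those of the tile chr9:110949000-110949999 (0.76 with TMM) and of the GFP-targeting sum (1.34 with TMM, 0.24 without its top gRNA, -1.12 to 0.42 with single libraries left out). Log2 ratios of class shares changed sign for the class 0.5 to 2 kb upstream (-0.29) and the class 0.5 to 2 kb inside (-0.44) when the median gRNA was taken, an alternative chosen after seeing the data. So did the class between both genes (0.41 for the share of gRNAs detected, 0.15 with the 5′ end moved 250 bp into the gene, -0.63 to 0.044 with single libraries left out), the class near the Lrrc2 start (0.43 for gRNAs detected) and the GFP-targeting class (0.043 with the dummy guide counted, 1.69 for gRNAs detected, -1.12 to 0.42 with single libraries left out). The causes were not tested. Depth limits single gRNAs: a GFP-medium library held counts for 533 to 1198 of 3918.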
